A study of Mus musculus with 7 samples.

Results

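The CXC chemokine genes Cxcl1, Cxcl2, Cxcl3, Cxcl9, Cxcl10, Cxcl11, Cxcl13, Cxcl14 and Cxcl16 and the receptor gene Cxcr4 were followed in macrophages sorted from mouse gliomas. These 10 genes were taken by name out of 55385 genes counted, without use of their levels. The macrophages came from intracranial QPP7 tumours in C57BL/6 mice, each tumour started from 100000 injected glioma cells. The injected cells carried a hairpin against Chi3l1, a gene for a secreted chitinase-like protein (shChi3l1), or else a control hairpin (shSC), and gave 3 shChi3l1 and 4 shSC libraries. The hairpin sat in the tumour cells and the macrophages were those of the unmodified host. A difference between groups is thus one between cells sorted from tumours with different hairpins, and what lay behind it was not tested. The labels give no age or sex and do not say that each library came from its own mouse, so a p-value here reflects only how far the libraries differ among themselves, some of which may be technical. Replicates 1 to 3 of each hairpin are named as partners in one of the study's figures, and shSC 4 has no partner.

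CXC chemokines are small secreted proteins that steer leukocytes along gradients through receptors coupled to G proteins. Cxcl1, Cxcl2 and Cxcl3 act on CXCR2 and draw neutrophils, and their transcription in macrophages is switched on by NF-kB after Toll-like receptor or IL-1 signals. Cxcl9, Cxcl10 and Cxcl11 act on CXCR3 of T cells and NK cells and are induced by interferons, Cxcl9 mainly by interferon gamma. Cxcl13 calls B cells through CXCR5, Cxcl16 is a membrane-bound ligand of CXCR6 that proteases can shed, and CXCR4 is the receptor for Cxcl12.

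Of the 10 genes 8 had an entry in the RefSeq promoter table (GRCm38.p6), and sequence just before the start site is shown for the 3 CXCR2 ligands, which lie in 1 cluster on chromosome 5 and share an NF-kB motif. Each line gives 120 bases that end at the base before the RefSeq start site, and the capitals mark the NF-kB motif GGAATTTCC. RefSeq starts differ from those of the gene models used for counting. The window of Cxcl2 ends at 90903898, past its gene model start at 90903871, and that of Cxcl1 at 90891244, past 90891241.
Cxcl1, chr5:90891125-90891244, plus strand: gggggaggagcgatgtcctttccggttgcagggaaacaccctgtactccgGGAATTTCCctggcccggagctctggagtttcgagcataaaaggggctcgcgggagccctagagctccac
Cxcl2, chr5:90903779-90903898, plus strand: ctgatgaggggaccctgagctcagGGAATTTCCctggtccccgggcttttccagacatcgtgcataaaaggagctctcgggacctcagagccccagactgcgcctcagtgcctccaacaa
Cxcl3, chr5:90785981-90786100, plus strand: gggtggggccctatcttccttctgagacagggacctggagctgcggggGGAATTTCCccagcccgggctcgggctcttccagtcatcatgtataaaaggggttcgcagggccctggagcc
The motif began at position -70 from the RefSeq start site of Cxcl1, -96 from that of Cxcl2 and -72 from that of Cxcl3. It was found on either strand within 250 bases before the start in 94 of 32851 promoter entries, or 0.286%, and the looser GGANNTTCC, which includes it, in 3.59%.

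The interferon-induced Cxcl10 is shown over 250 bases because it held both an interferon and an NF-kB motif. Capitals mark, in order, GAAANNGAA, the core of an interferon-stimulated response element, and the NF-kB motif GGAATTTCC read on the other strand.
Cxcl10, chr5:92348890-92349139, minus strand: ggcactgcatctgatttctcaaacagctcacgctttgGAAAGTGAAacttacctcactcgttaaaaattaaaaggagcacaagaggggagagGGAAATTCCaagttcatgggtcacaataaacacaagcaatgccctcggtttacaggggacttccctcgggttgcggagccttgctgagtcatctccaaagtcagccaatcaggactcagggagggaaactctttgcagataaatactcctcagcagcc
The response element core was present in 7.13% of promoter entries, on either strand of the same 250 bases. Cxcl9 and Cxcl14 also held it, Cxcl14 together with TTCNNNGAA, the gamma-activated site, which was present in 7.02% of entries. The windows of Cxcl13 and Cxcr4 held none of these letters. The motifs were chosen with these promoters in view, and a match describes letters, not binding.

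On mm10 the gene models, introns and untranslated regions included, lie as follows. The CXCR2 ligand genes are Cxcl3 (ENSMUSG00000029379.10) at chr5:90786103-90789600 on the plus strand, Cxcl1 (ENSMUSG00000029380.11) at chr5:90891241-90893115 on the plus strand and Cxcl2 (ENSMUSG00000058427.10) at chr5:90903871-90905938 on the plus strand. Further along the same chromosome are the CXCR3 ligand genes Cxcl9 (ENSMUSG00000029417.9) at chr5:92321347-92328079 on the minus strand, Cxcl10 (ENSMUSG00000034855.13) at chr5:92346638-92348889 on the minus strand and Cxcl11 (ENSMUSG00000060183.6) at chr5:92359544-92365485 on the minus strand, and then Cxcl13 (ENSMUSG00000023078.6) at chr5:95956951-95961068 on the plus strand. The remaining genes are Cxcl14 (ENSMUSG00000021508.11) at chr13:56288643-56296551 on the minus strand, Cxcl16 (ENSMUSG00000018920.11) at chr11:70453983-70459984 on the minus strand and Cxcr4 (ENSMUSG00000045382.6) at chr1:128588199-128592293 on the minus strand.

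Macrophage libraries of both groups held high levels of transcripts of 5 of the chemokines. The part of other cells in the sort in these levels was not tested. Per exon length, averaged over the 7 libraries, Cxcl16 stood at 898 ± 163 TPM (SD, n = 7), Cxcl2 at 784 ± 489 TPM, Cxcl10 at 699.9 ± 221 TPM, Cxcl1 at 506 ± 509 TPM and Cxcl9 at 394 ± 116 TPM. Cxcl16 ranked 142nd of all genes by mean TPM. The other 5 genes were much lower, from Cxcr4 at 45.9 ± 18.6 TPM through Cxcl13 at 21.5 ± 22.6, Cxcl11 at 16.6 ± 8.89 and Cxcl14 at 8.69 ± 5.58 to Cxcl3 at 4.41 ± 5.61 TPM. Cxcl9 lay above Cxcr4 in 7 of 7 libraries, and this gap between the upper and lower genes exceeded the spread of either. Every other pair of neighbours in the order changed places in at least 1 library, and their mean TPM differed by less than the larger of their SDs, apart from Cxcr4 and Cxcl13, where the difference of 24.4 TPM just passed it.

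**Figure D1:**
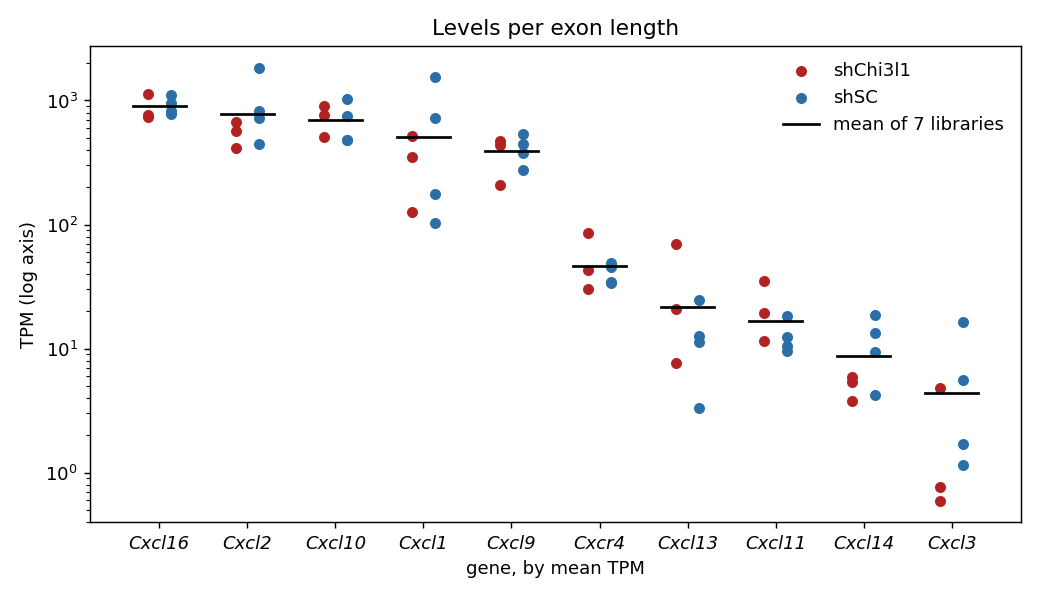
Levels per exon length (TPM, log axis) of the 10 genes in each library, shChi3l1 in red and shSC in blue, with the mean of 7 libraries as a black line. Cxcl16, Cxcl2, Cxcl10, Cxcl1 and Cxcl9 average 394 TPM or more, and the other 5 average 45.9 TPM or less.

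Total reads assigned to genes ran from 19169129 to 36502664 per library. All 7 macrophage markers, among them Csf1r, Cd68 and Adgre1, had reads in every library, and their summed level was 1668 to 5575 CPM in shChi3l1 and 2205 to 3570 CPM in shSC libraries. Libraries numbered 1 had the lowest share of reads in genes over 5000 exon bases, at 12.6% in shChi3l1 1 and 14.8% in shSC 1, against 16.8% to 20.7% in the others. In sorted bulk RNA, fewer cells of a type and less RNA per cell cannot be told apart.

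No CXC gene differed by hairpin beyond the spread between libraries. All 10 passed the filter on low counts, and edgeR's quasi-likelihood test gave each an adjusted p of 0.9998 over 15448 tested genes, of which 0% were called. By unadjusted p under 0.05, 0 of the 10 were called, against 1.48% of tested genes. In each of the 10 the shChi3l1 and shSC ranges overlapped, whereas 1.24% of tested genes were higher and 1.25% lower without overlap. Log2 fold changes, shChi3l1 over shSC, were above 0 for 6 members and below 0 for 4, with a median of 0.10. Over all tested genes 57.6% lay above 0 and the median was 0.07. These results do not show that the genes were equal, because the 95% intervals were wide, as given for each gene below.

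**Figure D2:**
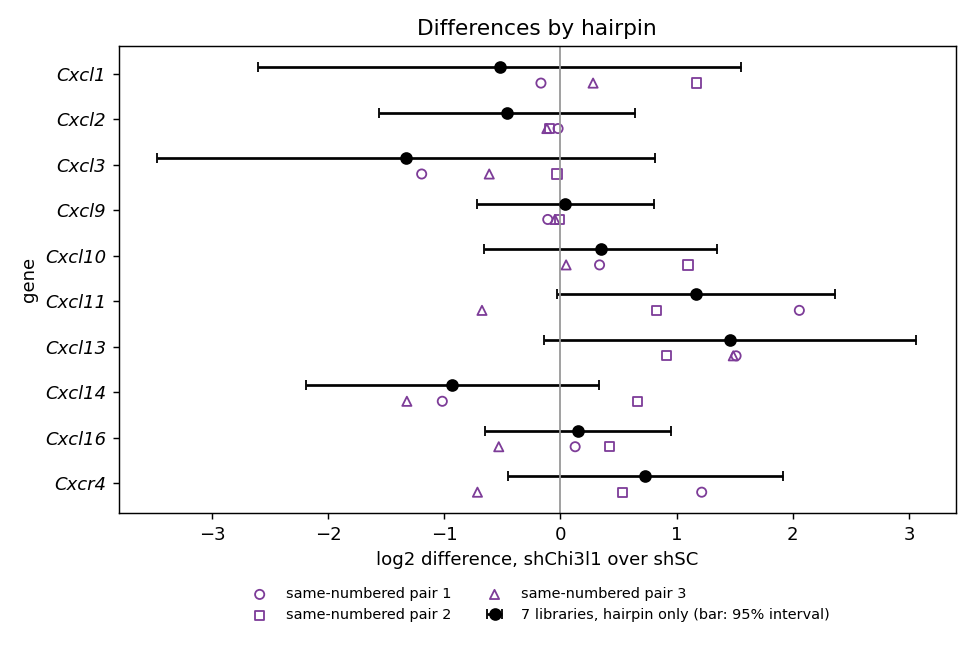
Log2 differences, shChi3l1 over shSC, for each gene. Black points and bars are edgeR estimates over 7 libraries with 95% intervals, and open symbols are the differences within same-numbered pairs. Every interval crosses 0, and the pair differences of Cxcl2 and Cxcl9 lie within 0.12 of 0.

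The neutrophil-attracting genes varied more between libraries of the same hairpin than between hairpins. Cxcl1 had 699.8, 306 and 108 CPM in shChi3l1 replicates 1, 2 and 3, against 786, 136, 89.1 and 1123.5 CPM in shSC replicates 1, 2, 3 and 4. Libraries numbered 1 and shSC 4 were high and libraries numbered 3 were low, with full overlap between hairpins. The highest library exceeded the lowest 12.6-fold, a larger span than in 97.5% of the 8993 tested genes that averaged 2 or more in log2 CPM. By edgeR Cxcl1 had a log2 fold change of -0.52 (SE 0.92, 95% interval -2.60 to 1.56). The sign rested on shSC 4, without which it was 0.14 (SE 0.94). With the replicate number as a block, a fit of the 6 paired libraries that leaves out shSC 4, it was 0.43 (SE 0.30).

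Cxcl2, the most abundant of the CXCR2 ligands, kept a similar order with a smaller span. It had 844, 654 and 392 CPM in shChi3l1 replicates 1 to 3, against 856, 699.5, 425 and 1485 CPM in shSC replicates 1 to 4. Same-numbered libraries were close to each other, and shSC 4, which has no partner, stood highest. Within pairs 1, 2 and 3 the log2 differences, shChi3l1 minus shSC, were -0.02, -0.10 and -0.12. Over 7 libraries the log2 fold change was -0.46 (SE 0.49, 95% interval -1.56 to 0.64), and without shSC 4 it was -0.07 (SE 0.45).

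Cxcl3 was scarce, resting on 30 to 518 reads. It had 1.49, 7.84 and 1.22 CPM in shChi3l1 replicates 1 to 3, against 3.44, 8.01, 1.87 and 22.2 CPM in shSC replicates 1 to 4. Again shSC 4 was highest, but here libraries numbered 2 came next in place of those numbered 1. Cxcl3 had a log2 fold change of -1.33 (SE 0.95, 95% interval -3.48 to 0.82). Without shSC 4 it was -0.34 (SE 0.85), with the replicate block -0.61 (SE 0.41), and without shChi3l1 2 -2.71 (SE 1.04, unadjusted p = 0.0307 by edgeR). Cxcl1, Cxcl2 and Cxcl3 are related in sequence, so some reads could be assigned to the wrong member.

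Library shSC 4, highest for all 3 CXCR2 ligands, was also highest in tumour and glial markers, whose 8 genes summed to 12 to 64.7 CPM in shChi3l1 and 34.9 to 240.2 CPM in shSC libraries. All 8 had reads in shSC 4, and Olig2, the oligodendrocyte lineage factor, was at 0 in shChi3l1 3. The part of other cells in the Cxcl1, Cxcl2 and Cxcl3 levels was not tested. Of the genes that mark neutrophils, Ly6g stayed at or below 0.213 CPM and Cxcr2 at or below 0.638 CPM in all libraries. Mmp8 had reads in every library, at 1.62 to 11.2 CPM. Of 5 tested neutrophil markers Mmp8 alone passed an unadjusted p of 0.05 (0.0278 by edgeR, adjusted p 0.9998). Its log2 fold change was -1.48 (SE 0.57), and 0.576% of tested genes were lower at that threshold. The 9 neutrophil markers summed to 88.4 to 148 CPM in shChi3l1 and 45.5 to 127 CPM in shSC libraries. Csf3r made up over 50% of the sum in 5 libraries, and how far its reads came from cells other than neutrophils was not tested. In shChi3l1 1 S100a8 led with 67.4 CPM, Retnlg reached 24.0 CPM in shSC 2, and S100a9, Ly6g, Cxcr2, Retnlg, Ngp and Camp were each at 0 in at least 1 library.

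**Figure D3:**
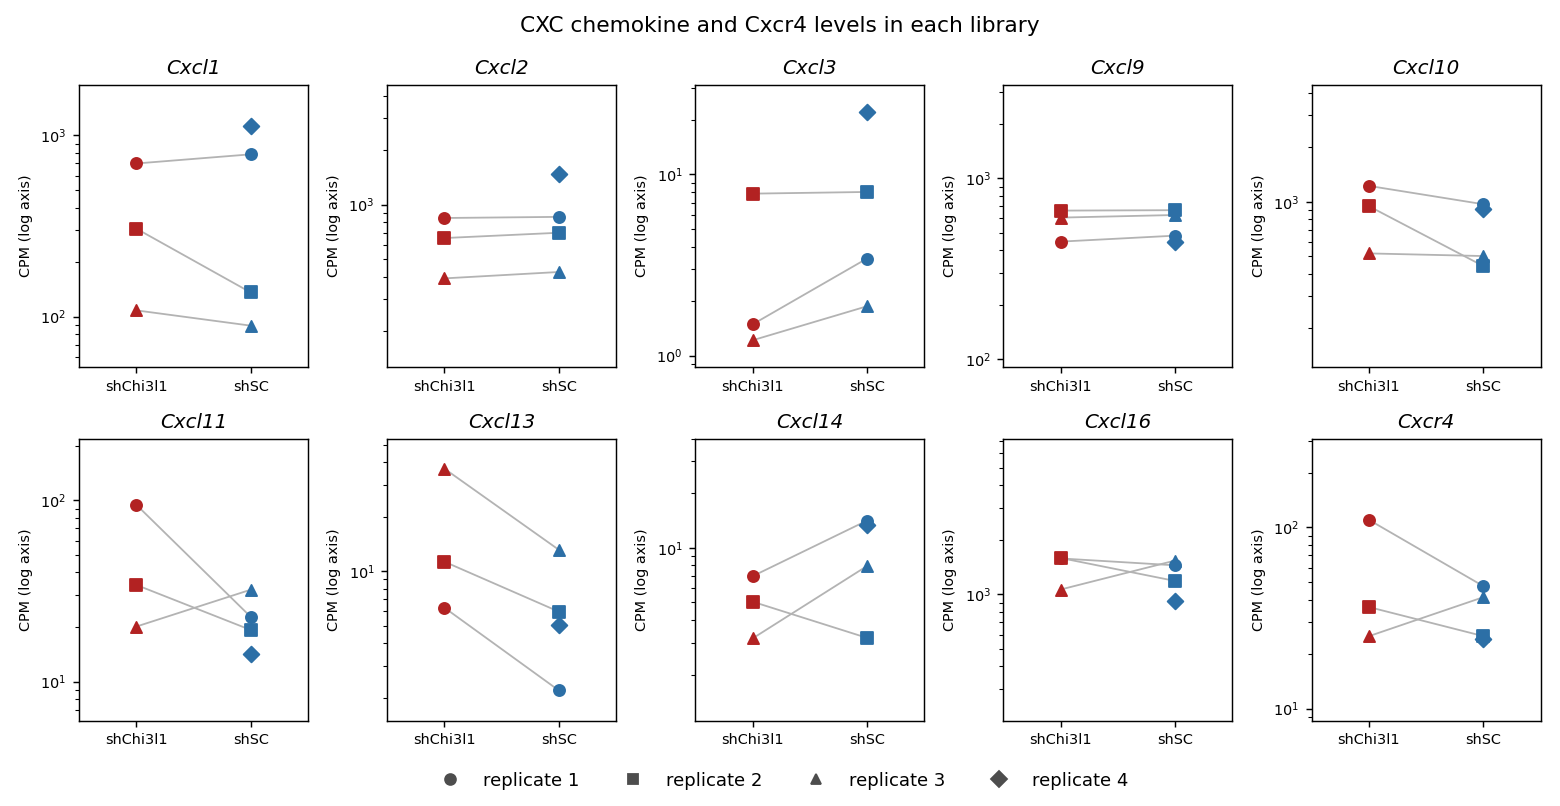
CPM (log axis) of each gene in each library, shChi3l1 left in red and shSC right in blue. Marker shape gives the replicate number and grey lines join same-numbered libraries. Lines are almost level for Cxcl2 and Cxcl9, and all 3 lines of Cxcl13 are higher at the shChi3l1 end.

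Of the CXCR3 ligands, Cxcl9 was the steadiest of the 10 genes. It had 447, 663 and 607 CPM in shChi3l1 replicates 1 to 3, against 482, 666.5, 627 and 446 CPM in shSC replicates 1 to 4. The groups covered nearly the same range, and the libraries numbered 1 and shSC 4 were low where they had been high for Cxcl1 and Cxcl2. Highest and lowest library differed 1.49-fold, and only 3.18% of the 8993 genes had a smaller span. Its log2 fold change was 0.04 (SE 0.34, 95% interval -0.72 to 0.80), a value whose sign changed with the scaling. In the same-numbered pairs the log2 differences were -0.11, -0.01 and -0.05. All 3 pair differences lay within 0.12 of 0 for Cxcl9 and Cxcl2, as for 0.498% of tested genes, a limit set after the values were seen.

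Cxcl10 was higher in shChi3l1 in each same-numbered pair but not beyond the spread. It had 1223, 946 and 519 CPM in shChi3l1 replicates 1 to 3, against 969, 442, 501 and 909 CPM in shSC replicates 1 to 4. Pair 2 differed most, by 1.10 on the log2 scale, and pairs 1 and 3 by 0.34 and 0.05. The log2 fold change was 0.35 (SE 0.44, 95% interval -0.66 to 1.35), and it was -0.00032 (SE 0.48) without shChi3l1 1, the highest library. The reads cover a gene of which 5.9% of exon bases overlap Art3 on the other strand, and the Nextera XT kit does not mark strand. Art3 had 22 to 117 reads per library, far below the 12791 to 31844 of Cxcl10.

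Spp1, the osteopontin gene, is often set against Cxcl9 to grade macrophages. Its level was 131.8, 213 and 223 CPM in shChi3l1 replicates 1 to 3, against 139.6, 130.7, 79.5 and 556 CPM in shSC replicates 1 to 4, so Cxcl9 CPM divided by Spp1 CPM was 3.39, 3.11 and 2.72 in shChi3l1, against 3.45, 5.10, 7.88 and 0.803 in shSC libraries. The shChi3l1 ratios lay inside the shSC range, which shSC 3 and shSC 4 bounded.

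The balance between the CXCR3 ligands was not constant. The CPM of Cxcl9 divided by that of Cxcl10 was 0.366, 0.701 and 1.17 in shChi3l1 replicates 1 to 3, against 0.498, 1.51, 1.25 and 0.491 in shSC replicates 1 to 4. The ratio was lowest in the libraries numbered 1 and in shSC 4. Per exon length Cxcl10 lay above Cxcl9 in 6 of 7 libraries, the exception being shSC 2 with 476 TPM of Cxcl10 and 537 TPM of Cxcl9.

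Cxcl11 is annotated as a polymorphic pseudogene, since C57BL/6 mice carry a disrupted copy of the chemokine gene. It had 94.6, 34.1 and 20.1 CPM in shChi3l1 replicates 1 to 3, against 22.8, 19.3, 32.1 and 14.1 CPM in shSC replicates 1 to 4. The highest value came from shChi3l1 1, and shChi3l1 3 lay inside the shSC range. The log2 fold change of 1.17 (SE 0.53, 95% interval -0.03 to 2.36) had an unadjusted p of 0.0543. It was 0.27 (SE 0.40) without shChi3l1 1 and 1.54 (SE 0.50, unadjusted p = 0.014 by edgeR) without shChi3l1 3. The pseudogene Gm2673, on the other strand, covers 41.7% of the exon bases of Cxcl11 and had 0 reads in every library. The libraries keep no strand, so reads in the shared bases could not be told apart. If such reads were left uncounted, the Cxcl11 levels given here are too low.

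Same-numbered pairs were in one direction for 5 of the 10 genes. Cxcl10 and Cxcl13 were higher in shChi3l1 in all 3 pairs, as were 12.5% of tested genes. Cxcl2, Cxcl3 and Cxcl9 were lower in all 3, as were 10.8% of tested genes.

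Cxcl13, the B-cell attractant, had the largest fold change of the 10 and the same sign in every pair. It had 6.29, 11.3 and 36.8 CPM in shChi3l1 replicates 1 to 3, against 2.20, 5.98, 13.1 and 5.06 CPM in shSC replicates 1 to 4. Libraries numbered 3 were highest and shSC 1 lowest, so the groups overlapped although each shChi3l1 library exceeded its partner. Pair differences were 1.51, 0.91 and 1.49 on the log2 scale. Over all libraries the log2 fold change was 1.46 (SE 0.71, 95% interval -0.14 to 3.06, unadjusted p = 0.0696 by edgeR). With the replicate block it was 1.30 (SE 0.29), with an edgeR unadjusted p of 0.00369 and an adjusted p that rounded to 1. In that fit 435 of 14950 genes had an unadjusted p under 0.05. The Cxcl13 value was 0.42 (SE 0.68) without shChi3l1 3.

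Summed B-cell and summed microglia markers were also highest in shChi3l1 3. The summed T-cell and NK-cell markers and the summed dendritic-cell markers were highest in shSC 3. Not every marker followed its sum. The NK-cell markers Ncr1 and Klrb1c, named after their values were seen, were highest in shChi3l1 1, at 10.1 and 30.6 CPM. Cd3d was also highest there, and Cd22 in shChi3l1 2. The dendritic-cell sum of 1312 CPM in shSC 3 was mostly Ccr7, at 1156 CPM. The 5 B-cell markers used, among them Cd79a and Ms4a1, summed to 58.1, 101 and 268 CPM in shChi3l1 replicates 1 to 3, against 29.4, 132, 159 and 36.4 CPM in shSC replicates 1 to 4, with Pax5 at 0 in 4 libraries. The 6 microglia markers used, among them Tmem119 and P2ry12, summed to 272, 446 and 1981 CPM in shChi3l1, against 331, 300.5, 254 and 149 CPM in shSC libraries. All microglia markers had reads in every library, and 4 of the 6 were higher in shChi3l1 at an unadjusted p under 0.05, against 0.906% of tested genes. Their adjusted p by edgeR was 0.9998, and all but Gpr34 overlapped between groups. The part of these cells in the Cxcl13 result was not tested.

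Cxcl14, a chemokine without a settled receptor, was low and leaned the other way. It had 6.97, 5.05 and 3.16 CPM in shChi3l1 replicates 1 to 3, against 14.1, 3.19, 7.94 and 13.3 CPM in shSC replicates 1 to 4. All but 1 shSC library exceeded every shChi3l1 library, the exception being shSC 2. For Cxcl14 the log2 fold change was -0.93 (SE 0.56, 95% interval -2.19 to 0.33). Pairs 1 and 3 gave -1.02 and -1.32, and pair 2 gave 0.66.

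Cxcl16 was abundant and steady. It had 1578, 1587 and 1063 CPM in shChi3l1 replicates 1 to 3, against 1446, 1185, 1537 and 918 CPM in shSC replicates 1 to 4. Libraries shSC 4, shChi3l1 3 and shSC 2 stood below the rest, in that order from the lowest. Cxcl16 had a log2 fold change of 0.15 (SE 0.36, 95% interval -0.65 to 0.95), and it was 0.02 (SE 0.38) without shSC 4. Zmynd15 on the other strand overlaps 18.3% of the exon bases of Cxcl16 and had 1950 to 8944 reads, against 21382 to 53459 for Cxcl16, and reads in the shared bases could not be told apart.

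Cxcr4 was highest in shChi3l1 1, as was Cxcl11. It had 110.2, 36.4 and 25.1 CPM in shChi3l1 replicates 1 to 3, against 47.5, 25.1, 41.2 and 24.1 CPM in shSC replicates 1 to 4. Without the 1 high library the groups lay over each other. The log2 fold change of 0.73 (SE 0.52, 95% interval -0.45 to 1.91) became -0.21 (SE 0.40) without shChi3l1 1. That library also had the lowest share of reads in long genes, and with offsets for each library's trend with exon length the value was 0.86 (SE 0.52) for Cxcr4 and 1.47 (SE 0.63) for Cxcl11. Pair differences for Cxcr4 were 1.22, 0.53 and -0.71.

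**Figure D4:**
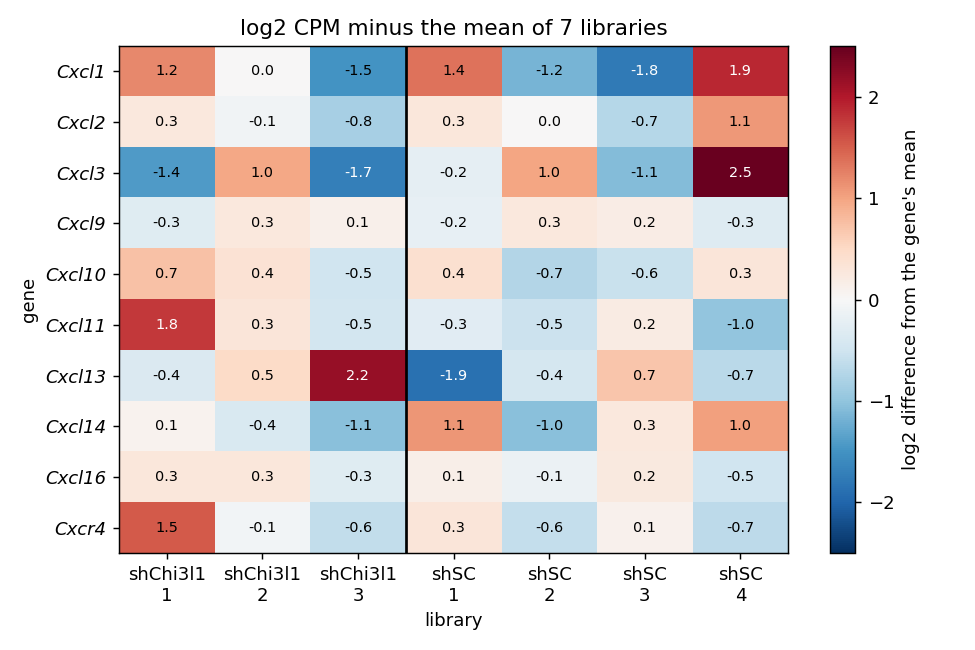
Log2 CPM of each gene minus its mean over the 7 libraries (colour and printed value), shChi3l1 left of the black line and shSC right of it. Red is above and blue below the mean. Cxcl11 and Cxcr4 share their highest library, shChi3l1 1, and Cxcl1, Cxcl2 and Cxcl3 share shSC 4.

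Across the 10 genes, likeness was measured as the root mean square difference between centred log2 CPM over the 7 libraries. The measure is not scaled for span, so steady genes come close whatever their pattern and genes of unlike span stand apart. The closest members were Cxcl11 and Cxcr4, at 0.31, followed by Cxcl9 and Cxcl16 at 0.35 and Cxcl2 and Cxcl10 at 0.50. The 0.35 of Cxcl9 and Cxcl16 exceeded their own SDs in log2 CPM, 0.26 and 0.32, so it does not show a shared pattern. Of neighbouring genes, Cxcl1 and Cxcl2 differed by 0.89, and Cxcl2 was the member closest to Cxcl1. Cxcl9 and Cxcl10 differed by 0.73, and Cxcl10 and Cxcl11 by 0.74, and for each of these 3 genes another member was closer. Among 8982 other genes at that level or above, Il10, the gene of an anti-inflammatory cytokine, came closest to Cxcl1 at 0.49. Next were Clec4b1 at 0.52 and Tnfsf9, a co-stimulatory ligand gene, at 0.55. Those closest to Cxcl2 were Sdc4 at 0.25, Hmgn1 at 0.26 and Ctps at 0.27, and those closest to Cxcl3 were Lpl at 0.43, Ckap2l at 0.45 and Dnmt1 at 0.53. Cxcl13 was nearest to St6gal1, the gene of a sialyltransferase, at 0.32, then to Dusp4 at 0.43 and Sparc at 0.48. Cxcl10 was nearest to 1300002E11Rik at 0.20, Cav2 at 0.22 and Trmt11 at 0.23. Cxcl11 was nearest to Gm5547 at 0.115, Gm47754 at 0.232 and Syngr1 at 0.245, and Cxcr4 to Pts, Gngt2 and Psmd10 at 0.18, 0.18 and 0.19. Cxcl14 was nearest to Ccnb1, Dhrs13 and Coq7 at 0.32, 0.34 and 0.34. For the steady Cxcl9 and Cxcl16 any steady gene lies close, and Dcaf12 at 0.04 and Mospd2 at 0.06 came nearest, with BC005624 at 0.07 and Bfar at 0.08 also close to Cxcl9 and Spindoc at 0.06 also close to Cxcl16.

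Apart from Pf4, at a mean of 156 TPM, the receptors other than Cxcr4 and the remaining ligands of the family averaged 17.6 TPM or less. Of 13 further CXC ligand and receptor genes 9 could be tested, 5 had a log2 fold change above 0 and 4 below, and 0 passed an unadjusted p of 0.05 in either direction, against 0.906% higher and 0.576% lower over all tested genes. The median was 0.01. Pf4, the platelet factor 4 gene, was the most abundant, at 48.4, 8.26 and 9.65 CPM in shChi3l1 replicates 1 to 3, against 46.8, 29.6, 17.9 and 190.9 CPM in shSC replicates 1 to 4. Like Cxcl1, it was highest in shSC 4. Cxcr6, the Cxcl16 receptor gene of T cells, had 31.9, 6.53 and 23.6 CPM in shChi3l1, against 3.69, 24.2, 24.3 and 4.16 CPM in shSC libraries. Cxcr3 ranged over 2.29 to 8.23 CPM in shChi3l1 and 2.58 to 8.48 CPM in shSC libraries, and Cxcr5 over 1.57 to 14.0 and 0.780 to 14.7 CPM. Cxcl12, the ligand of CXCR4, had at most 4.66 CPM, in shChi3l1 3, and 0 reads in shSC 3. T-cell and NK-cell markers, whose cells carry Cxcr3 and Cxcr6, summed over 9 genes to 57.1 to 207 CPM in shChi3l1 and 28.0 to 292 CPM in shSC libraries, all with reads in every library, and their part in the receptor levels was not tested.

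Genes of the interferon-gamma pathway, some upstream of the CXCR3 ligands and some induced like them, gave no call. Over all tested genes 57.6% had a log2 fold change above 0 and 1.48% an unadjusted p under 0.05. Of 13 interferon-gamma pathway genes tested, 11 had a log2 fold change above 0 and 2 below. Their median was 0.19, and 0 passed an unadjusted p of 0.05. The most abundant were Irf8, a myeloid transcription factor gene, at 0.19 (SE 0.43), Gbp2, an interferon-induced GTPase gene, at 0.32 (SE 0.50), and the transcription factor gene Irf1 at 0.13 (SE 0.36). Ifng, the inducing cytokine and named after its values were seen, had 10.1, 3.06 and 11.2 CPM in shChi3l1 replicates 1 to 3, against 33.8, 22.8, 13.2 and 2.32 CPM in shSC replicates 1 to 4. It was lower in shChi3l1 in all 3 pairs, as were 10.8% of tested genes. Its log2 fold change was -1.15 (SE 0.79), and shSC 4 was lowest of all. The part of T cells and NK cells in the Ifng level was not tested.

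Of 12 NF-kB and Toll-like receptor genes taken beside the CXCR2 ligands, inhibitors included, 10 had a log2 fold change above 0 and 2 were below. Over all tested genes 57.6% lay above 0 and 1.48% passed an unadjusted p of 0.05. Of the 12 genes 0 passed it, and their median was 0.19. Il1b, the interleukin-1 beta gene, was at 0.16 (SE 0.43), Nfkbia, the NF-kB inhibitor gene, at 0.12 (SE 0.48), and Zfp36, whose product speeds decay of chemokine transcripts, at 0.36 (SE 0.34). Of 8 genes linked to Cxcr4 and Cxcl16, 7 were above 0 and 1 below, with a median of 0.39 and 0 at an unadjusted p under 0.05. Cd74, which pairs with CXCR4 as a receptor for MIF, was at 0.43 (SE 0.52), the G-protein gene Gnai2 at 0.06 (SE 0.40) and Mif at -0.14 (SE 0.35).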

How the data were processed

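Tumours were dissociated for 15 min at 37 °C and macrophages sorted by flow cytometry, per the labels' protocols, which do not name the antibodies. A SMART-Seq ultra low input kit amplified 10 ng of RNA, and Nextera XT, which keeps no strand, turned 1 ng of the cDNA into libraries. The authors deposited raw counts per gene, 1 table per library. The submitters' processing notes name Trim Galore, HISAT2, featureCounts and mm10, with no version stated. Symbols were matched for 55144 of 55385 gene IDs (GENCODE M21).

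Counts were filtered (filterByExpr, minimum 10), TMM-scaled and put through the quasi-likelihood test of edgeR 4.0.16 (R 4.3.3) with hairpin as the only term, adjusted by Benjamini-Hochberg over 15448 genes. CPM used TMM-scaled totals, with 0.5 added to counts before logarithms. TPM used the exon lengths in the deposited tables. Standard errors came from the F statistic. Low-input amplification adds error that read numbers do not show.

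The labels call same-numbered replicates 1 to 3 paired in one figure of the study and state no shared animal or day. Across genes, departures from group means had correlations of 0.306, 0.26 and 0.188 in those pairs, all above 0.1, so pair values are given, with the block as an alternative. The numbers were not the best match throughout: shChi3l1 3 with shSC 2 gave 0.322, and shChi3l1 2 with shSC 4 gave 0.2. All library pairs differed beyond sampling noise, with a chi-square of at least 138.6 per gene.

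Genes and lists were chosen with earlier results of these data known. The named genes are the 10 members, the 3 most abundant genes of each list, receptors of the ligands and, per member, the 3 genes nearest in pattern; some of these genes and markers are not reported here. Alternatives were DESeq2 1.42.0, voom in limma 3.58.1, other scalings and filters, length offsets and left-out libraries. The fits were tested on simulated data.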

Additional observations from a re-analysis of the deposited data

How the results depend on the processing

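No CXC gene passed an adjusted p of 0.05 under any alternative run. At an unadjusted p under 0.05, 1 or 2 of the 10 passed in 11 of 16 alternatives: Cxcl13 in 7, Cxcl11 in 6, Cxcl14 in 1 (-1.22 without shSC 2) and Cxcl3 in 1 (-2.71 without shChi3l1 2). Over the 10 genes and 16 alternatives, 143 values kept the sign and 17 reversed it. Cxcl9, close to 0 throughout, became -0.0017 with DESeq2 size factors, -0.021 with upper quartile factors, -0.0051 without a filter on low counts, and -0.0017 by DESeq2's Wald test. It was -0.055 with the replicate block and -0.095 without shChi3l1 3 and shSC 4 together. Leaving out 1 library gave Cxcl9 -0.082 without shChi3l1 2, -0.0025 without shChi3l1 3, -0.042 without shSC 1 and -0.050 without shSC 4, in a range of -0.082 to 0.16. Cxcl1 was 0.14 without shSC 4, 0.43 with the block and 0.57 without shChi3l1 3 and shSC 4 together, where Cxcl2 was 0.18 and Cxcl3 0.072. Without shChi3l1 1 Cxcl10 was -0.00032 and Cxcr4 -0.21. With 1 library left out Cxcl1 ranged from -1.44 to 0.14, Cxcl10 from -0.00032 to 0.62 and Cxcr4 from -0.21 to 1.08. The cause of these reversals was not tested. Genes called numbered 0 in the main comparison and 1 by DESeq2's Wald test, Igkv4-58, named after its values were seen, and between 0 and 0 with any 1 library left out. The passes of members stand beside those of all tested genes in the same fits. Genes with an unadjusted p under 0.05 numbered 229 of 15448 in the main comparison. They numbered 435 of 14950 with the replicate block and 927 of 30668 without a filter. Of 15448 genes, 350 passed by DESeq2, 713 by voom and 357 with length offsets. With 1 library left out, the fewest were 143 of 14950 without shSC 4, and the most 908 of 16174 without shChi3l1 1. With the block no adjusted p of the 10 genes passed 0.05, and Cxcl13 alone had an unadjusted p below it. Depth limits Cxcl3 most, with 30 reads in the library that had fewest.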
